A study of Arabidopsis thaliana with 12 samples.

Results

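The 7 genes described here encode the late steps of anthocyanin biosynthesis in Arabidopsis thaliana: the enzymes F3'H, DFR and LDOX, the decorating transferases UF3GT, UGT75C1 and 5MAT, and the glutathione S-transferase TT19. They were taken by name and locus from the 28775 genes of the deposited count table, and all 7 were found and passed the filter on low counts. The members were chosen by name and function, with their counts in all 4 genotype groups already known, so their levels, fold changes and counts past edgeR's threshold are given as a description in every comparison, and no p-value is given for a member.

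RNA was taken from mature leaves of soil-grown, untreated plants at day 21 under 16 h of light and 8 h of dark at 23 °C. There were 4 genotypes with 3 libraries each: Col-0 wild type (WT), trb45, which is line trb45-1 with mutations in TRB4 and TRB5, clf29, with a mutation in CLF, and trb45 clf29, which combines them. The trb45 mutations come from that 1 line in both the trb45 and the trb45 clf29 group, and another trb45 line was not analysed here. TRB4 and TRB5 encode telomere repeat binding proteins, and the CLF protein is the histone methyltransferase subunit of a Polycomb repressive complex. The study's title describes TRB4 and TRB5 as activators of genes under that complex, and the comparisons below ask how the mutations changed leaf transcript levels.

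Total counts ran from 45519206 to 54215882 per library, and 3 counts, taken as the smallest level this depth can show, came to between 0.0519 and 0.0655 CPM, which divides each count by its library's size after TMM scaling. From WT to trb45, TRB5 went from 17.2 ± 0.898 to 3.17 ± 1.29 CPM and TRB4 from 5.51 ± 0.645 to 2.29 ± 0.859 CPM (mean ± SD, n = 3 libraries). In trb45 clf29 both were lower than in trb45, at 1.33 ± 0.336 CPM for TRB5 and 1.27 ± 0.0399 CPM for TRB4. The CLF level was 11.9 ± 0.842 CPM in WT leaves, with 0.0761 ± 0.116 CPM left in clf29 and 0.150 ± 0.0482 CPM in trb45 clf29. The mesophyll markers RBCS1A, LHCB1.1, CA1 and RCA together had 59326 to 65427 CPM in WT, 65086 to 73501 in trb45, 66125 to 70141 in clf29 and 73466 to 81075 in trb45 clf29. Of these markers, 4 of 4 rose in trb45 clf29 against WT and 1 of 4 in trb45 against WT.

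Anthocyanins are red to purple flavonoid pigments of leaves and stems. The early flavonoid enzymes make precursors that flavonols share, and the late enzymes turn dihydroflavonols into anthocyanidins, attach sugars and acyl groups to them and bring them to the vacuole. In Arabidopsis leaves and seedlings the late genes are known to be switched on by a complex of an R2R3-MYB protein such as PAP1, a bHLH protein such as TT8 and the WD40 protein TTG1, while the early genes respond to other MYB proteins.

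The stretches just upstream of DFR, LDOX, UF3GT and 5MAT are shown because these were the members with the largest fold changes, and none of the stretches overlaps another annotated gene. Each is the 250 bases before the RefSeq gene start in assembly TAIR10.1, read 5′ to 3′ on the strand of the gene. All 7 members were found in that annotation. Capitals mark matches, on either strand, to the G-box CACGTG, a sequence bound by bHLH and bZIP proteins, and to ANCNNACC, a general form of the MYB recognition elements described in flavonoid gene promoters. The DFR stretch lies at chr5:17166033-17166282 and the LDOX stretch at chr4:12006210-12006459. The UF3GT stretch lies at chr5:21938397-21938646 and the 5MAT stretch at chr3:11400333-11400582. All 4 are on the minus strand.
DFR: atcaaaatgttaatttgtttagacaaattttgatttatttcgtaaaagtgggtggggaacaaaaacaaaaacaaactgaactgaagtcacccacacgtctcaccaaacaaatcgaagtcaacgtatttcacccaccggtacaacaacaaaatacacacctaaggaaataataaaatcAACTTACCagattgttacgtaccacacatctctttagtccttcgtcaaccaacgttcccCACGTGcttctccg
LDOX: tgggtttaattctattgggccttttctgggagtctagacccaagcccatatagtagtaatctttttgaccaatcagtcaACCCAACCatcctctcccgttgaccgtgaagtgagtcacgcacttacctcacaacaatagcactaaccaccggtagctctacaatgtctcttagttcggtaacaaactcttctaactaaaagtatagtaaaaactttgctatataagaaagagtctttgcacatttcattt
UF3GT: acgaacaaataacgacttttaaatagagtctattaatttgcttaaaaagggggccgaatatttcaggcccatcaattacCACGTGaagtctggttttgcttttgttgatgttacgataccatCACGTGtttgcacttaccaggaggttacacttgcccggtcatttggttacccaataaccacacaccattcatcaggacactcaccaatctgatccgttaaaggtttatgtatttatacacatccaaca
5MAT: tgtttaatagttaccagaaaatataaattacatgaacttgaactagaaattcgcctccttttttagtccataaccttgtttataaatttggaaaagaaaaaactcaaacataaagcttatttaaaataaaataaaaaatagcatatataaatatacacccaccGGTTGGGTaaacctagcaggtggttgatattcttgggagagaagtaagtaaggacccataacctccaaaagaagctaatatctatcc

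CACGTG stood upstream of DFR, where the match began 14 bases before the gene start, and upstream of UF3GT, where the matches began 171 and 128 bases before it. That is 2 of the 7 members, beside 6.49% of the 27443 protein-coding promoters of the same length. ANCNNACC matched 6 of the 7, UF3GT being the exception, beside 25.4% of all promoters. The wider bHLH sequence CANNTG, which includes CACGTG, matched 5 of the 7 and 55.3% of all promoters. The match in LDOX, in TT19 and, on the opposite strand, in 5MAT was the same 8-letter form of ANCNNACC, ACCCAACC, which 0.510% of all promoters held. This form was singled out after its letters were seen. The telobox AAACCCTA, the telomere-like sequence that TRB proteins bind, matched none of the 7 windows and 4.49% of all promoters. These matches describe letters and were not tied to binding in these data.

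All 7 genes were low in WT and clf29 leaves and high in trb45 and trb45 clf29 leaves. For each member the trb45 libraries lay above those of WT, beside 20.4% of all genes tested. The trb45 clf29 libraries likewise lay above those of clf29, beside 24.9%. The summed level of the 7 genes was 14.7 to 18.8 CPM in WT and 10.9 to 16.3 CPM in clf29, against 179 to 190 CPM in trb45 and 129 to 165 CPM in trb45 clf29. In bulk leaf RNA, a change in the number of cells that transcribe these genes cannot be told apart from a change in the RNA per cell. The fitted fold of trb45 over WT ran from 4.70 for UGT75C1 to 28.2 for DFR.

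**Figure D1:**
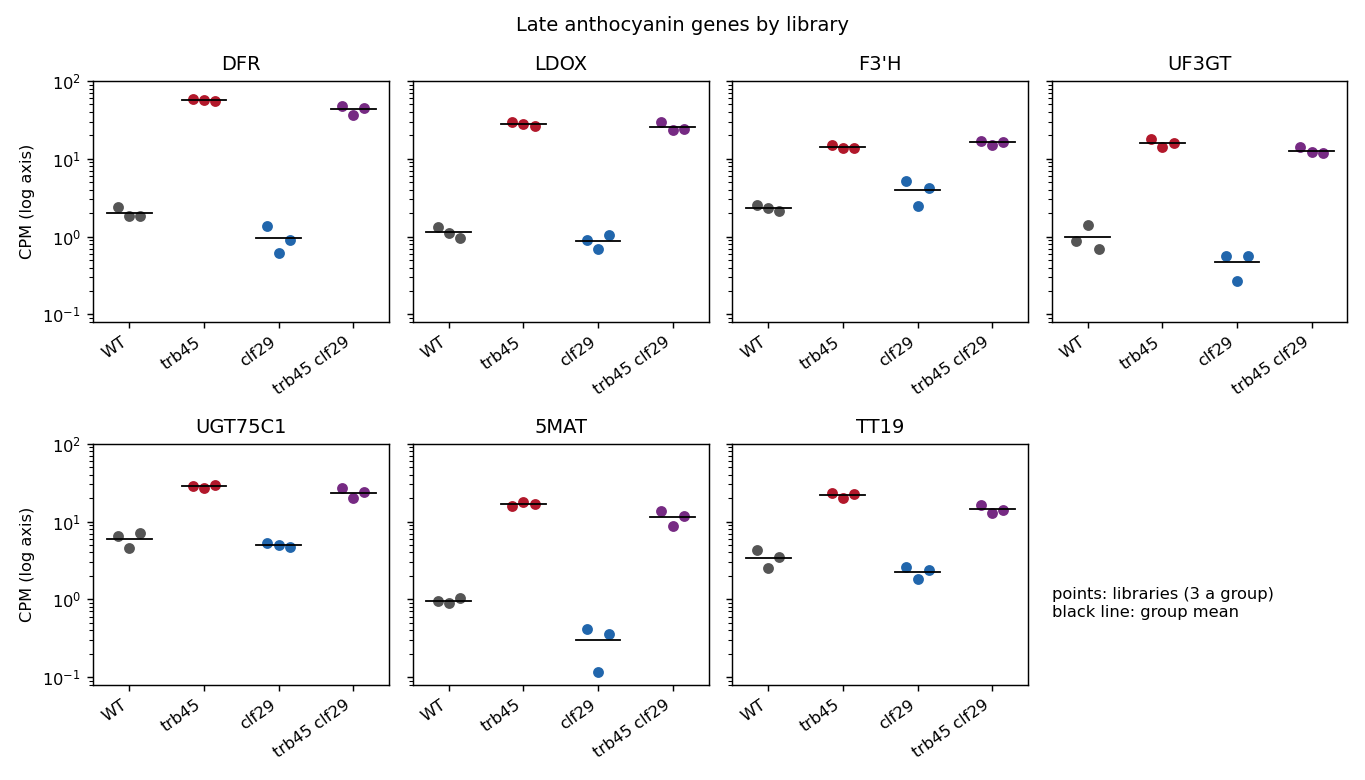
Level of each late anthocyanin gene in CPM (log axis) in the 12 libraries, with 3 points per genotype and a black line at the group mean. For each gene the trb45 points lie above the WT points, beside 20.4% of all genes tested. The trb45 clf29 points lie above the clf29 points, beside 24.9%. The means of DFR are 2.03 CPM in WT and 57.4 CPM in trb45.

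Of the enzymes that build the anthocyanidin, F3'H (AT5G07990, chr5:2560328-2563137, plus strand, 4 exons) adds a hydroxyl group to the B ring and also serves quercetin flavonols. Its level was 2.52, 2.36 and 2.15 CPM in WT replicates 1, 2 and 3, and 14.9, 13.7 and 13.9 CPM in those of trb45. In clf29 it was 5.17, 2.47 and 4.16 CPM, and in trb45 clf29 it was 17.1 and 15.2 CPM in replicates 1 and 2 and 16.5 CPM in the library without a number. F3'H was the only member with a higher mean in clf29 than in WT, although clf29 replicate 2 lay between WT replicates 1 and 2. It was 6.04-fold higher in trb45 than in WT (log2 fold change 2.59, SE 0.18) and 4.12-fold higher in trb45 clf29 than in clf29 (log2 fold change 2.04, SE 0.17).

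DFR (AT5G42800, chr5:17164093-17166032, minus strand, 6 exons) reduces dihydroflavonols to leucoanthocyanidins and is the first enzyme committed to anthocyanins and tannins. Its level was 2.38, 1.86 and 1.85 CPM in the WT replicates and 59.3, 57.5 and 55.4 CPM in those of trb45. In clf29 it was 1.37, 0.618 and 0.912 CPM, and in trb45 clf29 it was 47.8, 36.6 and, in the unnumbered library, 45.5 CPM. The 4 groups were fully separated from each other, with clf29 lowest, then WT, trb45 clf29 and trb45. DFR was 28.2-fold higher in trb45 than in WT (log2 fold change 4.82, SE 0.16) and 44.6-fold higher in trb45 clf29 than in clf29 (log2 fold change 5.48, SE 0.17).

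LDOX (AT4G22880, chr4:12004726-12006209, minus strand, 2 exons) oxidises leucoanthocyanidins to the coloured anthocyanidins. The WT replicates had 1.34, 1.12 and 0.959 CPM and the trb45 replicates 29.9, 28.4 and 26.3 CPM. The clf29 replicates had 0.899, 0.696 and 1.05 CPM, and the trb45 clf29 libraries 29.7, 23.2 and 24.4 CPM. LDOX thus had a low pair of groups, WT and clf29, that overlapped, and a high pair, trb45 and trb45 clf29, that overlapped as well. It was 24.7-fold higher in trb45 than in WT (log2 fold change 4.63, SE 0.14) and 29.2-fold higher in trb45 clf29 than in clf29 (log2 fold change 4.87, SE 0.15). The neighbouring gene AT4G22870, annotated beside LDOX, had 0 to 4 counts per library.

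Of the decorating enzymes, UF3GT (AT5G54060, chr5:21936746-21938396, minus strand, 1 exon) adds xylose to the sugar already on the anthocyanin. It had 0.888, 1.41 and 0.693 CPM in the WT replicates and 18.1, 14.0 and 15.8 CPM in those of trb45. It had 0.562, 0.271 and 0.570 CPM in clf29 and 14.2, 12.1 and 11.97 CPM in trb45 clf29. Every clf29 library was below every WT library, and trb45 clf29 replicate 1 reached into the range of trb45. UF3GT was 16.1-fold higher in trb45 than in WT (log2 fold change 4.01, SE 0.21) and 27.1-fold higher in trb45 clf29 than in clf29 (log2 fold change 4.76, SE 0.23).

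UGT75C1 (AT4G14090, chr4:8122188-8123835, minus strand, 1 exon) adds glucose at the 5-hydroxyl of the pigment and was the member with the smallest fold of trb45 over WT. It had 6.42, 4.52 and 7.09 CPM in the WT replicates and 28.7, 26.7 and 29.3 CPM in those of trb45. It had 5.26, 4.93 and 4.73 CPM in clf29, all within the range of WT, and 26.7, 20.0 and 23.7 CPM in trb45 clf29. The folds of UGT75C1 were close to each other, at 4.70 for trb45 over WT (log2 fold change 2.23, SE 0.13) and 4.72 for trb45 clf29 over clf29 (log2 fold change 2.24, SE 0.14). AT4G14100 and AT4G06175 overlap 27.1% of the UGT75C1 gene, and AT4G14100 had 504 to 747 counts per library and a log2 fold change of 0.23 (SE 0.09) in trb45 against WT. Whether the counting used strand is not given in the sources used here, so the part of these overlaps in the UGT75C1 count was not tested.

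5MAT (AT3G29590, chr3:11398592-11400332, minus strand, 1 exon) adds a malonyl group to the sugar at the 5 position. It had 0.957, 0.893 and 1.03 CPM in the WT replicates and 15.7, 18.0 and 16.8 CPM in those of trb45. The clf29 replicates had 0.412, 0.116 and 0.361 CPM, and the trb45 clf29 libraries had 13.6, 8.80 and 11.7 CPM. Its 4 groups were separated in the same order as those of DFR, and clf29 replicate 2 held only 6 counts. 5MAT was 17.5-fold higher in trb45 than in WT (log2 fold change 4.13, SE 0.20) and 37.9-fold higher in trb45 clf29 than in clf29 (log2 fold change 5.24, SE 0.24).

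TT19 (AT5G17220, chr5:5658416-5659661, plus strand, 3 exons) binds anthocyanins and is needed for their transport into the vacuole. It had 4.26, 2.51 and 3.48 CPM in the WT replicates and 23.0, 20.3 and 22.6 CPM in those of trb45. It had 2.59, 1.82 and 2.41 CPM in clf29 and 16.2, 12.8 and 13.9 CPM in trb45 clf29. The trb45 clf29 libraries were all below those of trb45, while clf29 replicate 1 was just above WT replicate 2. TT19 was 6.41-fold higher in trb45 than in WT (log2 fold change 2.68, SE 0.16) and 6.29-fold higher in trb45 clf29 than in clf29 (log2 fold change 2.65, SE 0.17). AT5G17230 overlaps 8.67% of TT19 and was highly counted, at 19440 to 29417 counts per library, with a log2 fold change of −0.15 (SE 0.06) in trb45 against WT. The part of this overlap in the TT19 count was not tested.

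For trb45 against WT, edgeR's quasi-likelihood test over 19138 genes placed 7 of 7 members above its threshold of an adjusted p of 0.05 in the higher direction, beside 14.5% of all genes tested in that direction and 25.7% in either. The libraries of the groups did not overlap for 7 of 7, beside 20.4% of all genes in that direction. For trb45 clf29 against clf29 the count was again 7 of 7, beside 17.2% of genes called higher, 31.4% called in either direction and 24.9% without overlap in that direction. For trb45 clf29 against WT it was 7 of 7, beside 25.9% called higher and 48.5% called in all. The members were chosen with the values of all groups known, so nothing is read from these counts or from the counts of members in the comparisons that follow. The median log2 fold change over the members was 4.01 in trb45 against WT and 4.76 in trb45 clf29 against clf29, where the medians over all genes were 0.01 and 0.02. Ranked from the largest increase among 19138 genes in trb45 against WT, DFR stood at 8, LDOX at 11, 5MAT at 16 and UF3GT at 20. TT19 stood at 67, F3'H at 84 and UGT75C1 at 120.

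**Figure D2:**
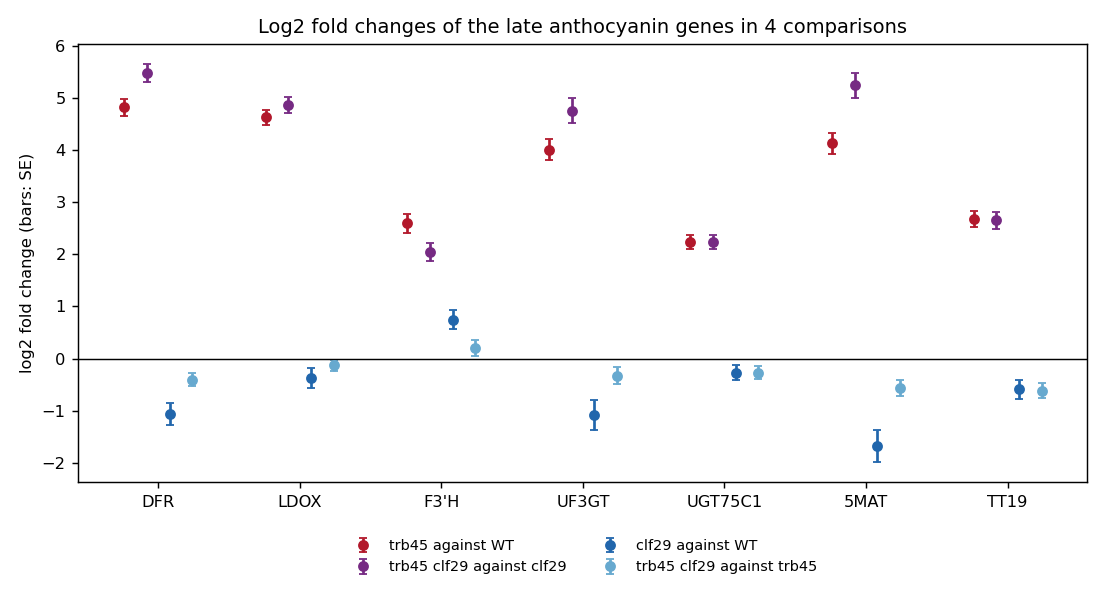
Log2 fold change of each late anthocyanin gene (y axis; bars are the SE of the fit) in trb45 against WT, trb45 clf29 against clf29, clf29 against WT and trb45 clf29 against trb45. The effects of trb45 lie between 2.04 and 5.48 in both backgrounds, and those of clf29 between −1.68 and 0.75.

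Without the trb45 mutations, clf29 leaves had lower means than WT for every member but F3'H. The log2 fold change in clf29 against WT was −1.68 (SE 0.31) for 5MAT, −1.08 (SE 0.29) for UF3GT, −1.07 (SE 0.21) for DFR and −0.59 (SE 0.18) for TT19. It was −0.37 (SE 0.19) for LDOX, −0.27 (SE 0.14) for UGT75C1 and 0.75 (SE 0.19) for F3'H. As a description, 5 of 7 members were past edgeR's threshold, DFR, UF3GT, 5MAT and TT19 on the lower side and F3'H on the higher, beside 34.7% of all genes called, 16.2% in the lower and 18.5% in the higher direction. The libraries did not overlap for 3 members, DFR, UF3GT and 5MAT, beside 24.3% of genes in the lower direction. The largest of these differences, that of 5MAT, was 3.21-fold, and the WT means behind them lay between 0.960 and 6.01 CPM. The library clf29 replicate 2 was the lowest of its group for 6 of 7 members. Without that library the count fell to 3 of 7, with −0.81 for UF3GT and −0.45 for TT19 no longer past the threshold. Without WT replicate 1, TT19 was at −0.41 and not past it, and without WT replicate 2, UGT75C1 was at −0.44 and past it.

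The comparison of trb45 clf29 with trb45 gives the clf29 effect in the trb45 background. The log2 fold change in trb45 clf29 against trb45 was −0.62 (SE 0.14) for TT19, −0.57 (SE 0.16) for 5MAT and −0.41 (SE 0.12) for DFR. It was −0.33 (SE 0.16) for UF3GT, −0.27 (SE 0.12) for UGT75C1, −0.13 (SE 0.11) for LDOX and 0.20 (SE 0.16) for F3'H. As a description, TT19, 5MAT and DFR, 3 of 7, were past the threshold on the lower side, beside 14.7% of all genes in that direction and 30.5% in either. These 3 members were also those whose libraries lay wholly lower, beside 18.8% of genes, while the trb45 clf29 libraries of F3'H lay wholly higher, beside 20.4%. Scaling by library size alone shifted the median over all genes to −0.13 in this comparison, and with it 5 members passed in the lower direction. Among the trb45 clf29 libraries, replicate 1 was highest for 7 of 7 members and replicate 2 lowest for 6 of 7. Without replicate 2, TT19 alone passed, with DFR at −0.30 and 5MAT at −0.41. DFR, at −0.38, did not pass without trb45 replicate 1 either, and UGT75C1, at −0.27, passed without WT replicate 2.

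The interaction is the effect of trb45 in the clf29 background minus its effect in the WT background. It was 1.12 (SE 0.35) on the log2 scale for 5MAT, 0.75 (SE 0.33) for UF3GT, 0.66 (SE 0.25) for DFR and 0.24 (SE 0.22) for LDOX. It was 0.01 (SE 0.19) for UGT75C1, −0.03 (SE 0.23) for TT19 and −0.55 (SE 0.25) for F3'H. By edgeR 0 of 7 passed the adjusted threshold, beside 7.47% of all genes. At an unadjusted p under 0.05 the count was 4, and by DESeq2 with adjustment it was 2, DFR and 5MAT. DFR passed in edgeR without clf29 replicate 1 (1.00), F3'H without clf29 replicate 2 (−0.79) and 5MAT without trb45 clf29 replicate 2 (1.27). The 3 largest values belonged to 5MAT, UF3GT and DFR, whose clf29 libraries all lay below those of WT, and both readings use the same clf29 and WT libraries.

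To compare levels between genes, CPM was divided by the length of the longest RefSeq transcript in kilobases. In WT, UGT75C1 and TT19 had the highest levels, at 3.65 ± 0.807 and 3.12 ± 0.800 CPM per kb (mean ± SD, n = 3), and differed by less than their spread. DFR, at 1.34 ± 0.202, and F3'H, at 1.22 ± 0.0976, followed and also differed by less than their spread. LDOX had 0.813 ± 0.137 CPM per kb, UF3GT 0.605 ± 0.226 and 5MAT 0.552 ± 0.0392, with the last 2 close together. UGT75C1 and TT19 are overlapped by other annotated genes, and the part of these overlaps in their levels was not tested.

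In trb45 the order of the length-scaled levels was another. DFR led with 37.8 ± 1.27 CPM per kb, followed by LDOX with 20.2 ± 1.27 and TT19 with 20.0 ± 1.31, which could not be told apart by their spread. UGT75C1 had 17.1 ± 0.824 CPM per kb. UF3GT and 5MAT were level at 9.68 ± 1.22 and 9.67 ± 0.678, and F3'H was lowest at 7.34 ± 0.333. In trb45 clf29, DFR again led with 28.5 ± 3.91 CPM per kb, LDOX had 18.4 ± 2.46, UGT75C1 14.3 ± 2.05 and TT19 13.1 ± 1.60, the last pair within their spread. In clf29 the order was led by UGT75C1 with 3.02 ± 0.163 CPM per kb, TT19 with 2.07 ± 0.368 and F3'H with 2.04 ± 0.707, and 5MAT was lowest at 0.170 ± 0.0910. DFR made up 10.7% to 12.7% of the members' summed CPM in WT and 5.66% to 8.41% in clf29, and 30.8% to 32.2% in trb45 and 28.4% to 30.8% in trb45 clf29.

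Genes whose pattern was most like that of the members were ranked by the root mean square distance to the median member, over the 12 libraries, of log2 CPM centred on the WT mean. Of 16338 candidates with a mean of at least 1 CPM, TT8, the bHLH partner in the activating complex, ranked first with a distance of 0.590. That mean was taken over all 12 libraries, so genes low in WT, such as TT8 at 0.287 CPM, entered only through groups where they were high. The ranking is therefore a description. The members' own distances to their median ran from 0.376 for UF3GT to 1.16 for UGT75C1. GPT2, a plastid glucose 6-phosphate transporter, followed TT8 at 0.625, then AT5G60250 at 0.720, AT4G15680 at 0.830 and NAC044, a NAC transcription factor, at 0.924. AT2G40010, the glutathione S-transferase gene GSTF6, AT1G01810, the amino acid transporter gene SIAR1 and AT5G51440 came next, between 1.05 and 1.14. PAP1 ranked 14 at 1.25. The GPT2 level was 0.168 ± 0.0554 CPM in WT and 0.216 ± 0.0796 CPM in clf29, against 2.31 ± 0.421 CPM in trb45 and 2.45 ± 0.354 CPM in the combined mutant.

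Among the listed activators, TT8 had 0.278, 0.335 and 0.249 CPM in the WT replicates, 4.31, 2.53 and 3.65 in those of trb45, 0.112, 0.271 and 0.190 in those of clf29, and 2.13, 1.93 and 2.25 in the trb45 clf29 libraries. The levels of TT8 were low where those of the late genes were low and high where they were high. TT8 rose in trb45 against WT, by a log2 fold change of 3.60 (SE 0.27, adjusted p = 1.35e-07 by edgeR), and in trb45 clf29 against clf29, by 3.45 (SE 0.29, adjusted p = 4.65e-07 by edgeR). PAP1, the MYB partner, had 1.83, 2.29 and 1.85 CPM in the WT replicates, 7.84, 6.38 and 7.31 in those of trb45, 2.55, 0.928 and 1.43 in those of clf29, and 10.6, 8.22 and 10.1 in the trb45 clf29 libraries. PAP1 rose in both backgrounds, by 1.85 (SE 0.23, adjusted p = 2.58e-05 by edgeR) and by 2.55 (SE 0.24, adjusted p = 9.86e-07 by edgeR) on the log2 scale. The other MYB genes of that clade were near or at 0: PAP2 had 0 to 4 counts per library, MYB114 0 to 3 and MYB113 0, so no fold was taken for them. TTG1 fell by 0.31 (SE 0.08, adjusted p = 0.0107 by edgeR) in trb45 against WT and by 0.26 (SE 0.08, adjusted p = 0.0276 by edgeR) in trb45 clf29 against clf29 on the log2 scale. GL3 and EGL3, the other bHLH genes, rose in trb45 against WT, by 1.06 (SE 0.35, adjusted p = 0.0385 by edgeR) and 1.00 (SE 0.22, adjusted p = 0.00297 by edgeR). In trb45 clf29 against clf29, GL3 fell by 1.23 (SE 0.36, adjusted p = 0.0172 by edgeR), and EGL3 was at −0.36 (SE 0.22, adjusted p = 0.229 by edgeR). GL3 had no more than 51 counts in a library, and its call in trb45 against WT was lost when any 1 of WT replicate 2 or 3 or of the trb45 replicates was left out, with log2 fold changes of 0.82 to 1.11. Its call in trb45 clf29 against clf29 was lost without clf29 replicate 2 (−0.995), trb45 clf29 replicate 2 (−1.003) or the unnumbered library (−1.09). In all, 4 of the 5 activators tested rose and 1 fell in trb45 against WT, and 2 rose and 2 fell in trb45 clf29 against clf29. Their median log2 fold changes were 1.06 and −0.26. The number called in trb45 against WT was 3 without WT replicate 2, and in trb45 clf29 against clf29 it was 2 without clf29 replicate 2 and 2 without the unnumbered library.

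**Figure D3:**
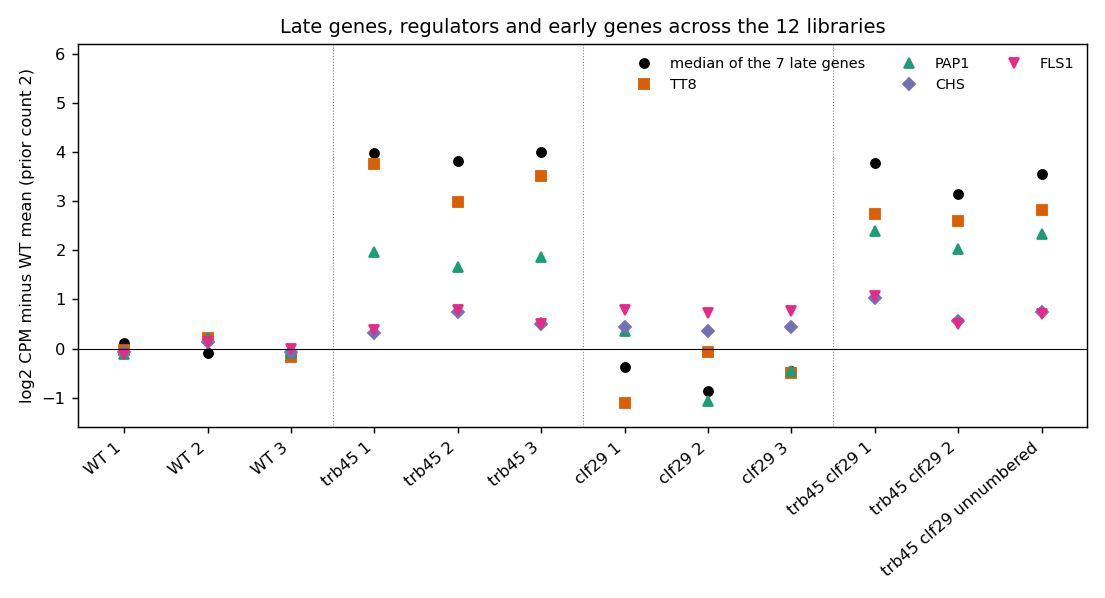
Level in each of the 12 libraries as log2 CPM minus the WT mean (prior count of 2) for the median of the 7 late genes, TT8, PAP1, CHS and FLS1. The median of the late genes and TT8 stand between 2.61 and 4.00 in all trb45 and trb45 clf29 libraries, PAP1 lies below them there, and CHS and FLS1 lie nearer to 0.

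The early flavonoid genes, which supply the late steps, had smaller fold changes. CHS, the entry enzyme chalcone synthase, was already abundant, with 694 ± 56.3 CPM in WT leaves and 1002 ± 149 CPM in those of trb45, and rose by 0.53 on the log2 scale (SE 0.11, adjusted p = 0.00249 by edgeR). CHI, chalcone isomerase, rose by 1.04 (SE 0.09, adjusted p = 5.43e-07 by edgeR) and its relative CHIL by 0.42 (SE 0.11, adjusted p = 0.0123 by edgeR) on the log2 scale. All 3 early genes tested also rose in trb45 clf29 against clf29, CHS by 0.38 (SE 0.11, adjusted p = 0.0166 by edgeR), CHI by 0.90 (SE 0.09, adjusted p = 1.51e-06 by edgeR) and CHIL by 0.32 (SE 0.11, adjusted p = 0.0454 by edgeR). The call for CHS in that background was lost without clf29 replicate 2 (0.35) or trb45 clf29 replicate 1 (0.24), and CHIL lost its call there in 13 of 20 alternatives. Without either of these 2 libraries CHI alone was called in that background. In trb45 against WT, CHIL lost its call without WT replicate 1 (0.36), WT replicate 3 (0.37) or trb45 replicate 2 (0.28). The list medians were 0.53 and 0.38, beside 4.01 and 4.76 for the late genes. F3H, which makes the dihydroflavonols, had 0 or 1 count in every library. AT3G51238 covers 94.5% of F3H in the annotation and was itself at 0 or 1 count, so the level of F3H could not be read from this table.

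The flavonol list includes FLS1, which competes for the same dihydroflavonols. It also includes UGT78D2, which adds a sugar to anthocyanidins as well as to flavonols, so the list is not the competing branch alone. Of its tested genes, 3 of 6 rose in trb45 against WT and 1 of 6 in trb45 clf29 against clf29. The median log2 fold changes were 0.45 and 0.06. UGT78D2 had 45.9 ± 1.37 CPM in WT and 75.2 ± 3.37 CPM in trb45. Its level was 59.9 ± 2.87 CPM in clf29 and 75.4 ± 9.84 CPM in trb45 clf29. FLS1, flavonol synthase, rose by 0.56 in trb45 against WT (SE 0.12, adjusted p = 0.00320 by edgeR) and was at 0.02 in trb45 clf29 against clf29 (SE 0.12, adjusted p = 0.917 by edgeR). In clf29 against WT, where DFR, UF3GT, 5MAT and TT19 had lower means, 6 of 6 tested genes of the flavonol list rose, FLS1 by 0.75 (SE 0.12, adjusted p = 2.66e-04 by edgeR). Of the MYB genes known to drive flavonol synthesis, MYB11 and MYB111 rose in trb45 against WT, by 1.47 (SE 0.39, adjusted p = 0.0118 by edgeR) and 0.45 (SE 0.11, adjusted p = 0.00493 by edgeR), and MYB11 was not called without WT replicate 1 (1.19). Of these 3 MYB genes, 0 in trb45 clf29 against clf29 were called by edgeR, and 0 had an unadjusted p under 0.05. Of 8 general phenylpropanoid genes, 3 rose and 1 fell in trb45 against WT, and 1 rose and 3 fell in trb45 clf29 against clf29. C4H rose in both, by 0.47 (SE 0.09, adjusted p = 9.06e-04 by edgeR) and 0.39 (SE 0.09, adjusted p = 0.00276 by edgeR), and 4CL2 fell in both, by 0.69 (SE 0.12, adjusted p = 7.16e-04 by edgeR) and 0.45 (SE 0.12, adjusted p = 0.00961 by edgeR). Without clf29 replicate 3, 4CL2 was at −0.37 in the clf29 background and not called.

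Of the other genes that decorate anthocyanins, 6 of 7 rose in trb45 against WT and 5 of 7 in trb45 clf29 against clf29. Their log2 fold changes ran from 0.21 to 2.02, with a median of 0.83, and from −0.11 to 1.45, with a median of 0.44. The acyltransferase genes 3AT1 and 3AT2, near relatives whose reads may be shared, rose by 1.34 (SE 0.16, adjusted p = 2.25e-05 by edgeR) and 1.101 (SE 0.17, adjusted p = 2.05e-04 by edgeR) in trb45 against WT. In trb45 clf29 against clf29 they rose by 1.45 (SE 0.16, adjusted p = 7.81e-06 by edgeR) and 1.38 (SE 0.17, adjusted p = 1.93e-05 by edgeR). BGLU10, which encodes an acyl-glucose-dependent glucosyltransferase, rose by 0.83 (SE 0.10, adjusted p = 2.74e-05 by edgeR) in the WT background and by 1.11 (SE 0.10, adjusted p = 6.64e-07 by edgeR) in the clf29 background. BGLU10 also rose in clf29 against WT, by 0.93 (SE 0.10, adjusted p = 6.47e-06 by edgeR), where of the late genes F3'H alone had a higher mean.

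**Figure D4:**
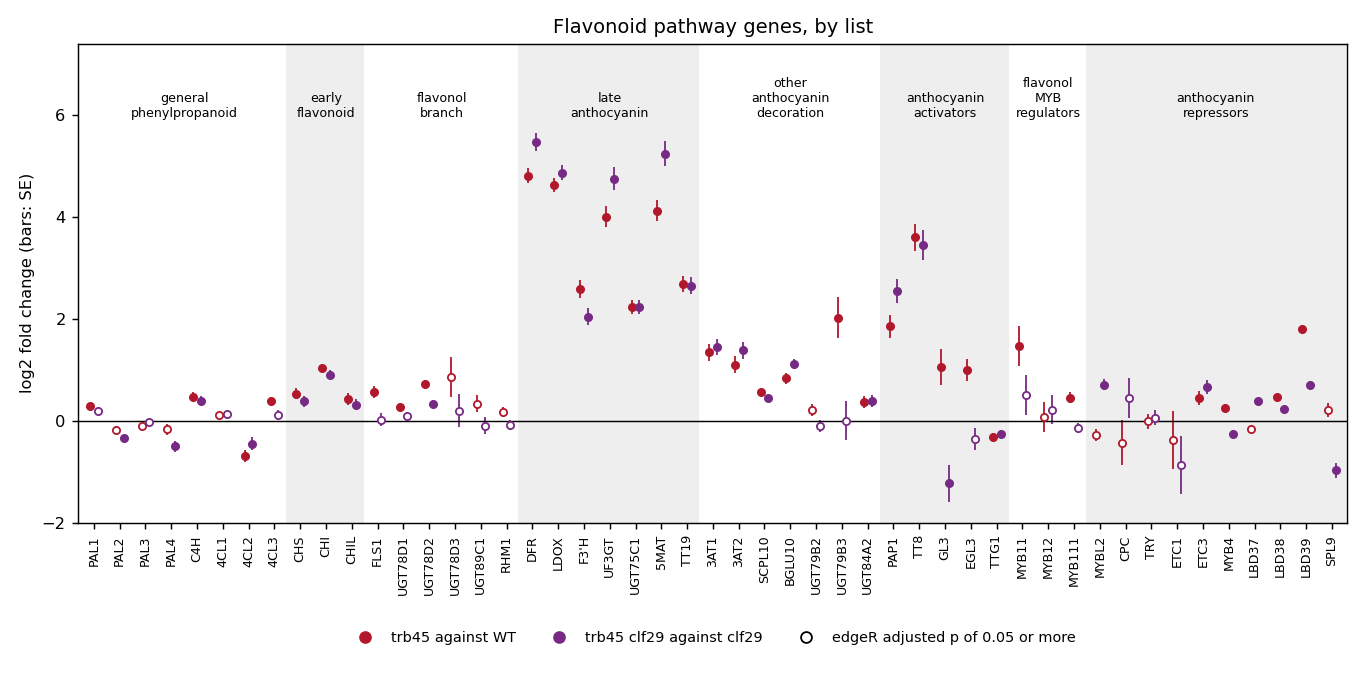
Log2 fold change (y axis; bars are the SE) of the tested genes of each pathway list in trb45 against WT and in trb45 clf29 against clf29; open circles did not pass an edgeR adjusted p of 0.05. The late anthocyanin genes lie between 2.04 and 5.48, and TT8, at 3.60 and 3.45, lies among them.

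Called repressors of anthocyanin synthesis all rose in trb45 against WT and moved both ways in trb45 clf29 against clf29. Of 10 tested, 4 rose and 0 fell in trb45 against WT, where 6 had an unadjusted p under 0.05, and 5 rose and 2 fell in trb45 clf29 against clf29, with median log2 fold changes of 0.10 and 0.31. The number called in trb45 against WT was 2 without WT replicate 1, without WT replicate 3 and without trb45 replicate 3. LBD39, a LOB-domain repressor of anthocyanin and nitrate response genes, rose by 1.80 (SE 0.09, adjusted p = 1.84e-09 by edgeR) in trb45 and by 1.69 (SE 0.09, adjusted p = 1.97e-09 by edgeR) in clf29, each against WT. MYBL2, a single-repeat MYB repressor, stood at 15.2 ± 0.0495 CPM in WT leaves, 12.5 ± 0.430 CPM in trb45, 11.2 ± 1.24 CPM in clf29 and 18.4 ± 3.51 CPM in the combined mutant. It rose by 0.71 in trb45 clf29 against clf29 (SE 0.12, adjusted p = 2.45e-04 by edgeR) and was at −0.28 in trb45 against WT (SE 0.12, adjusted p = 0.0942 by edgeR), where it was called lower, at −0.28, without trb45 clf29 replicate 1. Of 12 light signalling genes, 3 rose and 1 fell in trb45 against WT, the bZIP gene HYH rising by 0.36 (SE 0.07, adjusted p = 0.00186 by edgeR) and PIF4, a bHLH gene of growth in the dark and in warmth, falling by 0.49 (SE 0.12, adjusted p = 0.00771 by edgeR). HY5, the bZIP relative of HYH, was at 0.28 (SE 0.11, adjusted p = 0.0834 by edgeR) and was called without WT replicate 1 (0.38) or trb45 replicate 1 (0.35). In trb45 clf29 against clf29, 4 light signalling genes rose and 1 fell (3 were called in all without clf29 replicate 3), and PIF4 rose there by 0.52 (SE 0.12, adjusted p = 0.00466 by edgeR).

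The proanthocyanidin branch, which makes seed coat tannins from the product of LDOX, was nearly silent. Of its 7 listed genes 1, AHA10, passed the filter, and it was not called in trb45 against WT or in trb45 clf29 against clf29, at −0.59 (SE 0.52, adjusted p = 0.450 by edgeR) and −0.30 (SE 0.63, adjusted p = 0.754 by edgeR). AHA10 fell in trb45 clf29 against WT, by 1.54 on the log2 scale (SE 0.57, adjusted p = 0.0352 by edgeR), from 0.571 ± 0.0937 to 0.195 ± 0.114 CPM. BAN, the reductase that opens that branch, had at most 4 counts in a library, and TT12, its vacuolar transporter, at most 3.

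Markers of other cell types were read beside the members. The seed and seed coat list had 0.278 to 0.355 CPM in WT and 0.190 to 0.319 CPM in clf29, against 1.48 to 1.96 CPM in trb45 and 0.470 to 0.877 CPM in trb45 clf29, and so was higher where the late genes were higher. Of its 5 markers only the storage protein gene CRA1 passed the filter, with a log2 fold change of 2.44 in trb45 against WT (SE 0.30, adjusted p = 2.51e-05 by edgeR). The storage protein gene CRC and the oleosin gene OLEO1 were at 0 counts in every library. The anther and pollen list was at 3.36 to 13.5 CPM in clf29, against 0.0558 to 0.122 CPM in WT, 0.0346 to 0.262 CPM in trb45 and 0 to 0.193 CPM in trb45 clf29. It was thus highest in the group where DFR, UF3GT and 5MAT were lowest and where F3'H had a higher mean than in WT. The anther marker MS2 had 9.65, 2.43 and 5.21 CPM in clf29 replicates 1, 2 and 3, and F3'H had 5.17, 2.47 and 4.16 CPM there. Replicate 2 was lowest of the group for 6 of 7 members. The epidermis and trichome list had 451 to 475, 444 to 493, 449 to 466 and 500 to 520 CPM in WT, trb45, clf29 and trb45 clf29, in that order, and GL1 among them had at most 10 counts. Most of that sum was FDH, and other markers of the list moved in unlike ways. GL2 rose in trb45 and in clf29, each against WT, by 0.74 (SE 0.19, adjusted p = 0.00800 by edgeR) and 0.93 (SE 0.19, adjusted p = 0.00135 by edgeR) on the log2 scale. In clf29 against WT, ATML1 fell by 0.42 (SE 0.06, adjusted p = 6.74e-05 by edgeR) and PDF2 by 0.41 (SE 0.05, adjusted p = 2.86e-05 by edgeR). Both rose in trb45 clf29 against clf29, by 0.26 (SE 0.06, adjusted p = 0.00365 by edgeR) and 0.39 (SE 0.05, adjusted p = 4.86e-05 by edgeR). The phloem list had 310 to 327, 312 to 322, 227 to 263 and 244 to 275 CPM in the same order, most of it SUC2. Of its 2 markers, 1 rose in trb45 against WT and 1 in trb45 clf29 against clf29, and 1 fell in clf29 against WT. The marker APL had 15.2 ± 0.893 CPM in WT and 20.5 ± 3.41 CPM in trb45. Its level was 13.6 ± 0.272 CPM in clf29 and 18.4 ± 1.35 CPM in trb45 clf29. The guard cell list lay between 49.2 and 56.5 CPM in all libraries, with MYB60, 1 of its 2 markers, lower in clf29 than in WT by a log2 fold change of −0.37 (SE 0.10, adjusted p = 0.00985 by edgeR). The root list lay between 13.2 and 18.3 CPM, nearly all of it SHR. Its marker PYK10, at 0.0474 ± 0.0367 CPM in WT and 0.417 ± 0.192 CPM in trb45 clf29, rose between these groups by 3.07 on the log2 scale (SE 0.76, adjusted p = 0.00365 by edgeR). The part of these markers in the members' levels was not tested.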

How the data were processed

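Leaf mRNA was sequenced from 12 libraries, 3 in each of 4 genotype groups, and the authors deposited raw counts per gene, whole numbers with no scaling. Libraries were stranded mRNA libraries for DNBSEQ, per the labels' protocols. HISAT2, DESeq2 and the TAIR10 build are named per the submitters' processing notes. The counting program and whether it used strand are not given in the sources used here. Columns were matched to samples by name, 0 value columns were left unused, and a trb45 clf29 column without a replicate number was used as a library of its group without a number. The labels do not say that replicates come from separate plants, so p-values measure the spread between these libraries, which may be technical. No pair of libraries agreed within sampling noise.

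Differences between groups were tested on these counts in R 4.3.3 with edgeR 4.0.16. The filterByExpr filter (minimum count 10, minimum total 15) left 19138 of 28775 genes, and libraries were scaled by TMM (factors 0.935 to 1.07). The quasi-likelihood fit (glmQLFit, glmQLFTest) used 4 group means over all 12 libraries, with Benjamini-Hochberg adjustment over all genes tested and a threshold of 0.05. As a check of the code, the fit was also run on counts simulated with its own dispersion estimates. Such a run cannot test those estimates. Levels are CPM on TMM-scaled library sizes. The floor of 3 counts covers counting error only, since the reads carry no molecular identifiers. Positions, lengths and upstream sequences come from RefSeq's annotation of TAIR10.1, in which 28009 table IDs matched.

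The 7 members and all gene lists were chosen with earlier results of these data known. The p-values printed for listed genes are therefore descriptions and not independent tests. Besides the members, the mutated genes and CHS, F3H, FLS1, PAP1, PAP2, MYB113, TT8 and MYBL2, up to 3 genes per list and comparison with the largest change past the threshold could be named, and the 10 genes most like the members with a mean of at least 1 CPM (log2 CPM with a prior count of 2). MYB114, TTG1, AHA10, the genes overlapping or next to a named gene, and single marker genes fall outside that rule and were named after their values were seen. Alternatives were RLE size factors, library size alone, no filter on low counts, a filter on a mean of 10 counts, DESeq2 1.42.0, a block for the replicate number, leaving out 1 library at a time, an adjusted p under 0.01, and only the groups compared.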

Additional observations from a re-analysis of the deposited data

Results flagged for a closer look

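For 11 of the genes named by rule other than the late anthocyanin genes, edgeR's test placed the effect of trb45 in the clf29 background apart from that in the WT background. Each is given here as the log2 difference of the effects, with the effect in WT and then in clf29 leaves. Among genes that decorate anthocyanins, UGT79B3, a near relative of UGT79B2 whose reads may be shared with it, differed by −2.02 (SE 0.55, adjusted p = 0.0355 by edgeR), from 2.02 to 0.00. Among the bHLH activators, GL3 differed by −2.29 (SE 0.51, adjusted p = 0.0115 by edgeR), from 1.06 to −1.23, and EGL3 by −1.36 (SE 0.31, adjusted p = 0.0126 by edgeR), from 1.00 to −0.36. MYB111, the flavonol regulator, differed by −0.60 (SE 0.15, adjusted p = 0.0202 by edgeR), from 0.45 to −0.15.

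Among the repressors, MYBL2 differed by 0.99 (SE 0.16, adjusted p = 0.00176 by edgeR), from −0.28 to 0.71, and LBD37 by 0.56 (SE 0.09, adjusted p = 0.00122 by edgeR), from −0.17 to 0.39. MYB4 differed by −0.51 (SE 0.11, adjusted p = 0.0115 by edgeR), from 0.24 to −0.27. LBD39 differed by −1.10 (SE 0.12, adjusted p = 6.97e-05 by edgeR), from 1.80 to 0.70, and SPL9 by −1.19 (SE 0.20, adjusted p = 0.00168 by edgeR), from 0.22 to −0.98. PIF4, of light signalling, differed by 1.01 (SE 0.17, adjusted p = 0.00219 by edgeR), from −0.49 to 0.52. TRB5, a mutated gene, differed by −1.29 (SE 0.31, adjusted p = 0.0189 by edgeR), from −2.42 to −3.71.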

How the results depend on the processing

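No alternative reversed the direction of a called value. The late genes called in trb45 against WT, in trb45 clf29 against clf29 and in trb45 clf29 against WT were 7 of 7 under every alternative run. Over all comparisons, 814 of 833 alternative values of the members kept their side of the threshold, 9 passed it and 10 fell short. Of the other named genes, 4458 of 4759 kept theirs. Values that were not called could change sign and still be counted as kept. The interaction of UGT75C1, for example, ran from −0.117 to 0.174 over the alternatives. In trb45 clf29 against trb45, 5 members were called with library size alone and 1 at an adjusted p under 0.01, where the reported count is 3; for the interaction DESeq2 called 2 and edgeR 0. Leaving out 1 library each gave 3 to 6 members in clf29 against WT, 1 to 4 in trb45 clf29 against trb45 and 0 to 1 for the interaction.

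Over all genes, the 4912 calls in trb45 against WT became 2875 at an adjusted p under 0.01, the 6647 in clf29 against WT 3839, the 6012 in trb45 clf29 against clf29 3762, the 5829 in trb45 clf29 against trb45 3107 and the 1429 of the interaction 585. Leaving out 1 library gave 4343 to 7453 in clf29 against WT, the lowest without WT replicate 1, and 949 to 1926 for the interaction. With library size alone the share of calls in the higher direction went from 53.3% to 36.7% in clf29 against WT and from 51.8% to 25.2% in trb45 clf29 against trb45. Equal replicate numbers did not pair the libraries across all groups: 2 of 15 pairs correlated above 0.1. Both joined WT and trb45, at 0.27 for replicate 1 and 0.32 for replicate 2, so some pairing of those groups was not excluded. In 10 of 24 comparisons of a library with another group it correlated best with its own number. A fit with a replicate block on the 11 numbered libraries gave 3897 calls in trb45 clf29 against clf29, 3115 in trb45 clf29 against trb45 and 657 for the interaction, and 5MAT was not called in trb45 clf29 against trb45 (−0.59). In trb45 clf29 against clf29 that fit did not call CHS (0.39), 4CL2 (−0.45) or PIF4 (0.49), which are called without the block.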
